A study of Mus musculus with 47 samples.

Results

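The pre-cDC1 is the committed precursor of the type 1 conventional dendritic cell (cDC1), and it can be grown from cultured bone marrow or isolated directly from an animal. Wild-type mouse pre-cDC1 grown in vitro from bone marrow with Flt3 ligand, the cytokine that drives dendritic cell development, were set against wild-type pre-cDC1 taken directly from spleen, by RNA sequencing. The libraries were chosen by their titles, 3 cultured and 3 splenic, which makes 6 of the 47 libraries of the series. Wild-type pre-cDC1 taken directly from bone marrow (3 libraries) served as a reference, because the comparison asks whether cultured cells match the later, splenic precursor. The other libraries of the series cover earlier progenitors, mature dendritic cells and deletions of Irf8 enhancers. Mouse strain, age, time in culture and the surface markers used for sorting are not given in the sources used here. The titles number 3 libraries a group, whereas the design text names biological duplicates, so the p-values rest on a spread that may in part be technical. In the cultured, splenic and marrow groups alike, replicate 3 is listed in a separate, later block of the series than the other replicates. The titles do not tell whether replicate 3 was prepared apart from the others.

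Pre-cDC1 form in bone marrow under the transcription factor IRF8, travel through the blood and complete their differentiation in tissues such as the spleen. BATF3 maintains IRF8 in these cells, and the mature cDC1 takes up dead cells through receptors such as CLEC9A and presents their antigens to CD8 T cells. Precursors divide and mature dendritic cells largely do not, while genes of MHC class II, switched on by the regulator CIITA, are acquired as the cells differentiate.

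The deposited expected counts summed to between 27397911 and 29581257 per cultured library, and to 14660655, 16144493 and 26693902 in splenic replicates 1, 2 and 3. Marrow libraries held 14761797 to 32768182. Splenic replicates 1 and 2 stood apart, with 10009 and 9901 genes detected, against 11518 to 12099 in the other 7 libraries. Splenic replicate 1, at 14660655 counts, had nearly the depth of marrow replicate 1, which held 14761797 counts and 12099 detected genes. Of 11525 genes tested, 22% were at 0 in splenic replicate 1 or 2. Because of this, the median log2 fold change of most lists is also given with splenic replicate 3 as the sole splenic library. A group of 1 library has no spread of its own, so calls that involve the splenic group are not given for that fit. Levels are CPM, counts scaled to a common normalised library total, and fold changes are log2 values, cultured minus splenic unless stated, with their standard error (SE). A gene is called where its adjusted p is below 0.05.

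The root mean square difference in log2 CPM over all tested genes was 1.09 to 1.14 between cultured libraries and 0.88 to 1.17 between marrow libraries. Between splenic libraries it was 2.66 to 2.99. Cultured and splenic libraries differed by 1.6 to 3.03, with a median of 2.81, and cultured and marrow libraries by 1.73 to 1.91. The 3 pairs of a cultured library with splenic replicate 3 gave the low end of the cultured-splenic range, as the plot of distances shows. The pairs with splenic replicates 1 and 2 lay about as far apart as splenic libraries lay from each other.

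**Figure D1:**
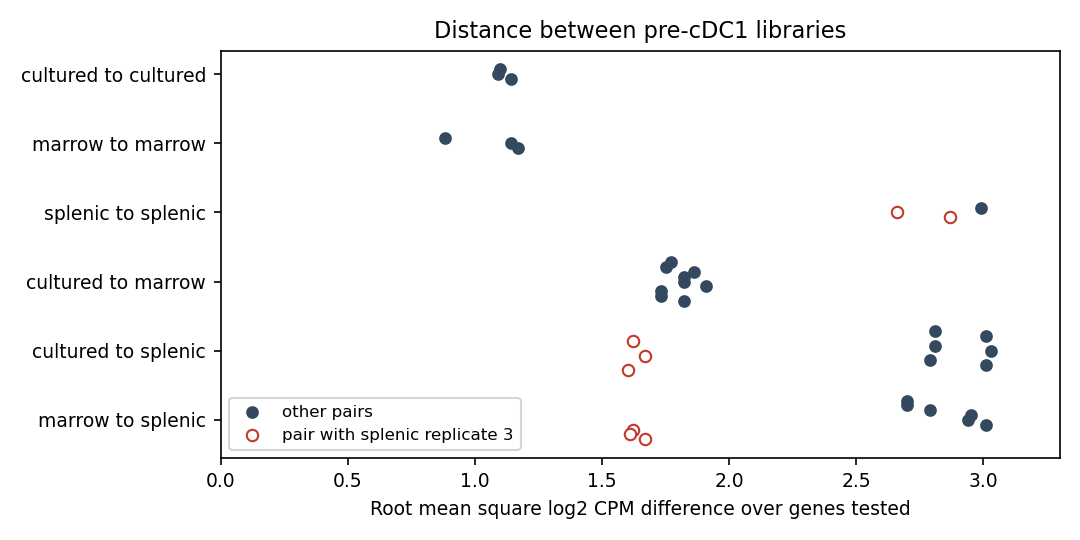
Root mean square difference in log2 CPM over all tested genes for each pair of libraries, by pair of groups. Points are pairs, and open red points are pairs with splenic replicate 3. Pairs within the cultured group lie at 1.09 to 1.14 and pairs within the splenic group at 2.66 to 2.99.

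The label was checked against markers. Irf8 stood at 3390, 3520 and 3670 CPM in the cultured libraries, 2550, 2110 and 3150 in the splenic and 1550, 1670 and 2900 in the marrow libraries. Flt3, the receptor of Flt3 ligand, Clec9a, Zbtb46, a transcription factor of conventional dendritic cells, and Itgax, which encodes CD11c, were present in every library. Kit, a receptor of early progenitors, stood at 308, 282 and 289 CPM in culture, 303, 157 and 564 in spleen and 22.9, 29.7 and 37.5 in marrow. Cadm1, an adhesion molecule of cDC1, went against the label in a pair of splenic libraries and was low in all marrow libraries. It held 337, 281 and 243 CPM in the cultured libraries, but 0.0617, 0 and 308 in splenic replicates 1, 2 and 3, and 9.88, 5.91 and 7.93 in marrow. Xcr1, the chemokine receptor of cDC1, followed the same order, with 45.5, 40.7 and 39.4 CPM in culture and 0.925, 5.52 and 39.5 in spleen. Splenic replicate 3 thus stood beside the cultured libraries for both genes, and splenic replicates 1 and 2 stood below them. Neither gene was called between cultured and splenic cells.

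Markers of other cells were also summed, and their part in the results was not tested. The 13 B cell markers in the files summed to 62.3 to 71.2 CPM in cultured libraries and to 196, 334 and 555 in splenic libraries, lowest to highest, with 8 of 13 at 0 in all cultured libraries. Cd79a, which defines B cells, was at 0, 0 and 0.0738 CPM in culture and at 2.41, 12 and 0.0816 in splenic replicates 1, 2 and 3. The 15 markers of red pulp macrophages summed to 38.8 to 66.1 CPM in culture and to 84.8, 160 and 403 in spleen. Their defining gene Spic was at 0 in all cultured libraries and at 0, 18 and 0.204 CPM in splenic replicates 1, 2 and 3, so it was carried by splenic replicate 2. Erythroid markers summed to 0.554 to 2.24 CPM in culture and 16.1 to 119 in spleen, T cell markers to 3.69 to 6.05 and 12.7 to 90.8, and monocyte markers to 485 to 526 and 862 to 977. The list of NK and innate lymphoid genes summed to 535 to 746 CPM in culture and 340 to 506 in spleen, while Ncr1, its defining gene, was at 0 in all 6 libraries. In marrow, monocyte markers summed to 1160 to 2000 CPM, and neutrophil markers to 143 to 218 against 12 to 48.9 in spleen. B cell markers there summed to 132 to 152 CPM, below spleen, and red pulp macrophage markers to 93 to 107, within the splenic range. Genes of plasmacytoid dendritic cells summed to 3420 to 3930 CPM in marrow, where the cDC1 identity list summed to 2960 to 4470. In bulk RNA, fewer cells of a type and less RNA per cell cannot be told apart.

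Between cultured and splenic pre-cDC1, 534 of 11525 genes were called (4.63%), 235 higher in culture (2.04%) and 299 lower (2.59%), with a median log2 fold change over all tested genes of 0.007. Spleen against marrow gave 372 calls (3.23%), 200 higher in spleen (1.74%) and 172 lower (1.49%). Culture against marrow gave 623 (5.41%), 339 higher in culture (2.94%) and 284 lower (2.46%). These comparisons share libraries, so their values are set side by side and are not independent of each other. They also share 1 estimate of the spread. In fits of only the 2 groups compared, the counts were 171, 89 and 2534, in the same order. The count between cultured and splenic cells moved with the libraries used. It was 1938 without splenic replicate 3, 65.6% of them higher in culture, and 124, 130 and 161 without cultured replicate 1, 2 or 3. It was 248 and 254 without marrow replicates 1 and 2. Higher in culture were 54, 58 and 75 genes without cultured replicate 1, 2 or 3, and lower 70, 72 and 86. Of 95 called genes taken by the naming rule, 33 were called in each of the 9 fits that leave out 1 library, and none of the 95 changed sign in any fit run.

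Genes of cDC1 identity summed to 11200 to 12500 CPM in the cultured libraries, 5950, 6410 and 9810 in the splenic libraries, lowest to highest, and 2960 to 4470 in the marrow libraries. The 3 groups did not overlap in this sum, and splenic replicate 3 lay nearest to culture. Of 26 members, all tested, 3 were called higher in culture than in spleen, where 2.04% of all tested genes were, and none lower (median 0.16). Cultured libraries lay above every splenic library for 6 members (17% of all tested genes) and below for 5 (12%). Of the same 26, 12 were called higher in spleen than in marrow (1.74% of all tested genes) and 14 higher in culture than in marrow (2.94%). Rab7b, a late endosomal GTPase, had 1190, 1260 and 1110 CPM in culture, 534, 460 and 522 in spleen and 43.4, 76.0 and 33.3 in marrow. The 3 groups did not overlap, and marrow lay far below the other two. The log2 fold change was 1.23 between culture and spleen (SE 0.28, adjusted p = 0.0477) and 3.31 between spleen and marrow (SE 0.30, adjusted p = 0.00147). Rtl8a, a gene derived from a retrotransposon, had 69.4, 64.1 and 56.1 CPM in culture, 22.4, 19.1 and 22.7 in spleen and 3.21, 5.75 and 6.9 in marrow. It too rose from marrow to spleen to culture without overlap, by 1.56 between spleen and culture (SE 0.29, adjusted p = 0.0244). Septin3, a cytoskeletal GTPase, was the furthest apart of the called members, with 2120, 2310 and 1930 CPM in culture, 143, 80.9 and 504 in spleen and 12.7, 12.7 and 10.9 in marrow (3.13, SE 0.61, adjusted p = 0.0312).

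None of these 3 calls held in all 9 fits that leave out 1 library. Rab7b lost its call without any 1 cultured library, splenic replicate 1 or 2, or marrow replicate 1, with an adjusted p of up to 0.165 (log2 fold change 1.19, without cultured replicate 2). Rtl8a lost it without any 1 cultured library or marrow replicate 2 (up to 0.112), and Septin3 without any 1 cultured or marrow library or splenic replicate 1 (up to 0.106). Without splenic replicate 3, 10 members were called higher in culture, where 1272 of 11750 tested genes were. With splenic replicate 3 as the sole splenic library, the list median was -0.11. Naaa, a lysosomal amidase of cDC1, had 1080, 1050 and 852 CPM in culture and 318, 318 and 638 in spleen and was not called (1.23, SE 0.32, adjusted p = 0.0745).

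Irf8, Batf3 and Id2, transcription factors of the lineage, were not called between culture and spleen. Irf8, at 3390 to 3670 CPM in culture and 2110 to 3150 in spleen, did not overlap between these groups, and its difference of 0.44 was not called (SE 0.26, adjusted p = 0.407). Batf3 had 16.1, 17.9 and 16.1 CPM in culture, 28.8, 24.1 and 19.6 in spleen and 4.91, 7.76 and 4.99 in marrow. Its cultured and splenic libraries did not overlap but were not called apart (-0.53, SE 0.28, adjusted p = 0.341), and it was called higher in spleen than in marrow (2.04, adjusted p = 0.00973). Id2, an inhibitor of helix-loop-helix factors that favours cDC1, had 62.6, 66.5 and 62.2 CPM in culture and 86.9, 78.9 and 47.4 in spleen, which overlap, against 14.5 to 28.8 in marrow. Cd8a, the CD8 alpha chain carried by mature splenic cDC1, had 0.398, 0 and 1.18 CPM in culture and 12.2, 17.6 and 117 in spleen. The groups did not overlap, yet the spread in spleen left the difference uncalled (-6.52, SE 2.22, adjusted p = 0.149).

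Among 34 tested dendritic cell transcription factors, 2 were called higher in culture (Runx1 and Bcl6) and 4 lower (Bcl11a, Cebpb, Zeb2 and Myc), with a median of -0.19. Over all tested genes, 2.04% were called higher and 2.59% lower. Bcl11a, needed for early lymphoid and plasmacytoid dendritic cell (pDC) development, had 50.4, 41.9 and 59.3 CPM in culture, 216, 165 and 150 in spleen and 207, 209 and 273 in marrow. Culture lay below both primary groups without overlap, by 1.81 against spleen (log2 fold change -1.81, SE 0.21, adjusted p = 0.00501, called in all 9 fits). Zeb2, which favours cDC2, pDC and monocytes over cDC1, had 42.4, 16.7 and 70.4 CPM in culture, 140, 284 and 231 in spleen and 545 to 635 in marrow. The groups did not overlap, in the order culture, spleen, marrow (-2.34, SE 0.49, adjusted p = 0.0375 between culture and spleen). That call was lost without cultured replicate 1 or 2, splenic replicate 2 or any 1 marrow library, with an adjusted p of up to 0.147. Calls for Runx1, Bcl6, Cebpb and Myc were likewise lost without 5 to 7 of the 9 libraries taken 1 at a time, each cultured library among them, and had adjusted p values of up to 0.112, 0.158, 0.111 and 0.158. DESeq2 on all 9 libraries called 4 higher and 10 lower, where it called 767 and 886 of 11525 tested genes. With splenic replicate 3 alone for spleen the list median was -0.17.

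In the MHC class II list the calls lay between marrow and the other groups. Of 14 tested members none was called between culture and spleen (median 0.26, and 0.04 with splenic replicate 3 alone for spleen). Against marrow, 8 were called higher in spleen (1.74% of all tested genes) and 9 higher in culture (2.94%). Cd74, the invariant chain that guides class II molecules, had 22800, 24300 and 20200 CPM in culture, 10600, 10600 and 27800 in spleen and 467, 619 and 1460 in marrow. Culture and spleen overlapped because of splenic replicate 3, and both lay far above marrow. The difference between culture and spleen was 0.46 (SE 0.51, adjusted p = 0.679), and between spleen and marrow 4.26 (SE 0.59, adjusted p = 0.00827). Ciita, the master regulator of class II transcription, had 1460, 1350 and 1350 CPM in culture, 1000, 810 and 1600 in spleen and 136, 168 and 137 in marrow. Its difference was 0.28 between culture and spleen (SE 0.24, adjusted p = 0.575) and 2.95 between spleen and marrow (adjusted p = 0.00144). H2-Ob, a subunit of the modulator of class II peptide loading, had 78.7, 84.4 and 70.9 CPM in culture, 75.7, 59.3 and 62.4 in spleen and 6.07 to 9.28 in marrow (0.25, SE 0.20, adjusted p = 0.552 between culture and spleen). H2-Aa, a class II alpha chain, had 68.6 to 75.5 CPM in culture, 69.2 to 103 in spleen and 28.8 to 34.0 in marrow. Between culture and spleen, 2 of the 14 had an unadjusted p below 0.05, and DESeq2 called 1 higher and 1 lower. Over all 11525 tested genes DESeq2 called 767 higher and 886 lower. An uncalled difference does not show that levels are equal. Levels of highly expressed genes with 1 RefSeq transcript may be understated, which can narrow differences between groups and was not tested for these members.

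**Figure D2:**
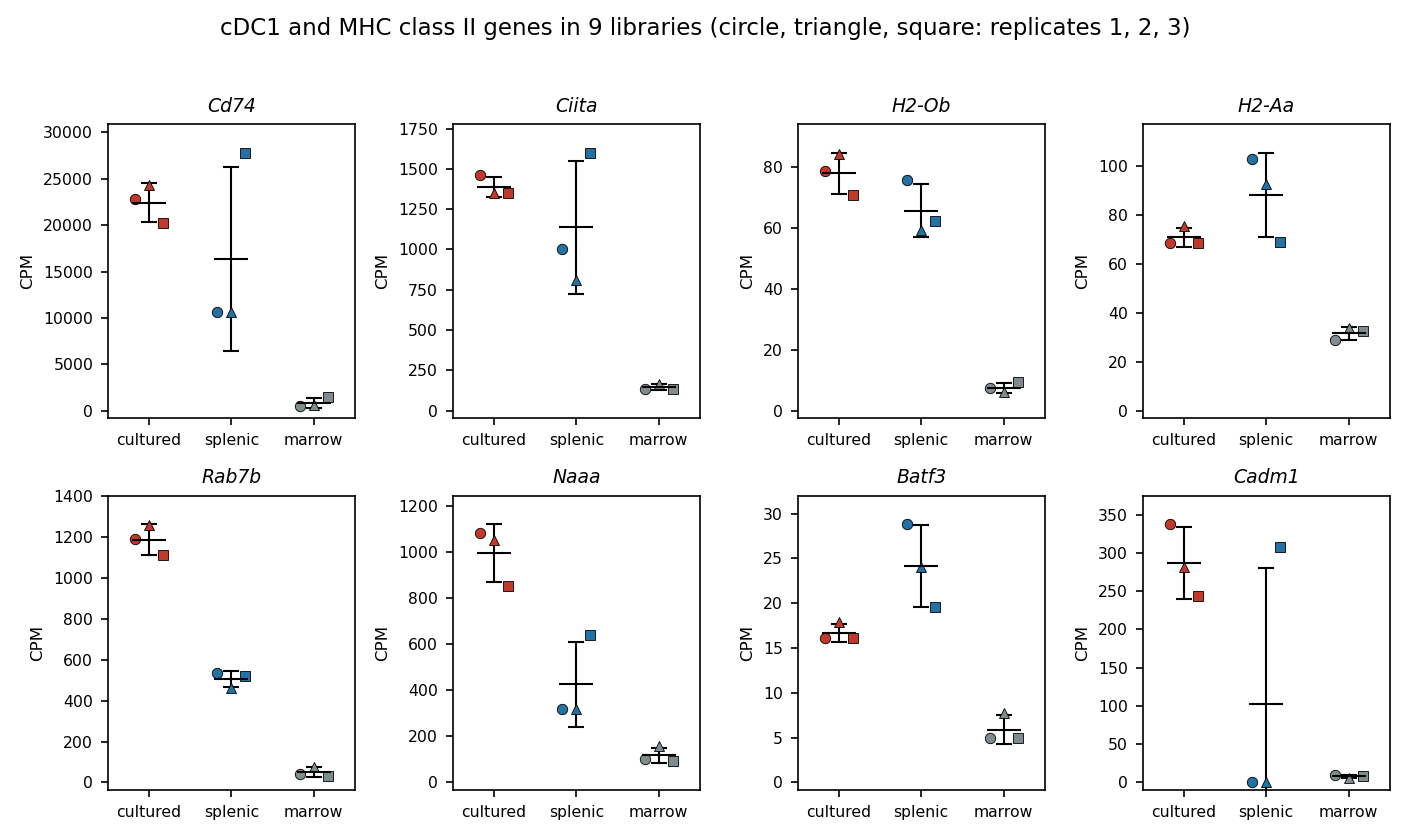
CPM in each library for 8 genes of cDC1 identity and MHC class II, in cultured, splenic and marrow pre-cDC1. Circles, triangles and squares are replicates 1, 2 and 3, bars are means and error lines SD (n = 3). Cd74, Ciita, H2-Ob and Rab7b are low in marrow in each panel, and Cadm1 is near 0 in splenic replicates 1 and 2.

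Genes of mitosis placed the cultured cells between spleen and marrow. They summed to 2400 to 2750 CPM in culture, 282, 470 and 1050 in spleen, lowest to highest, and 4620 to 6440 in marrow. Of 25 mitosis genes, 8 were called higher in culture than in spleen (2.04% of all tested genes) and none lower (median 1.81). All 25 had cultured libraries above every splenic library, against 17% of all tested genes. Against marrow, 24 of the 25 had cultured libraries below every marrow library (21.3% of all tested genes), with a median of -0.83. Of 25 DNA replication genes, 3 were called higher (median 1.41) and 23 had cultured libraries above every splenic library. Cultured libraries lay below every marrow library for 2 of the 25, against 21.3% of all tested genes, and above for 2. No share over all tested genes was taken for the latter. The median against marrow was 0.00. Between spleen and marrow, 12 mitosis and 4 replication genes were called lower in spleen (1.49% of all tested genes). No member of either list was called between culture and marrow by edgeR in the fit of 9 libraries. There 4 mitosis genes and no replication gene had an unadjusted p below 0.05. DESeq2 called 1 mitosis gene lower in culture than in marrow, where it called 775 of 11525 tested genes lower. Without splenic replicate 1, edgeR called 6 mitosis genes lower in culture than in marrow, where it called 434 of 11901 genes lower. Top2a, the topoisomerase that untangles chromosomes (chr11:98992947-99024199, GRCm38.p6), had 110, 119 and 108 CPM in culture, 19.6, 24.9 and 39.7 in spleen and 176, 166 and 135 in marrow. Spleen lay below both other groups without overlap, and culture was higher than spleen by 2.00 (SE 0.27, adjusted p = 0.00839, called in all 9 fits). Nusap1, a spindle protein, had 157, 203 and 171 CPM in culture, 23.9, 54.9 and 43.5 in spleen and 258 to 289 in marrow (2.12, SE 0.29, adjusted p = 0.00885, called in all 9 fits).

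Mcm7, a subunit of the replicative helicase, had 655, 672 and 653 CPM in culture, 170, 210 and 302 in spleen and 540, 476 and 577 in marrow. Cultured libraries were tightly grouped above spleen, by 1.54 (SE 0.21, adjusted p = 0.00915, called in all 9 fits). Ccna2 and Cdk1, which drive entry into mitosis, and Birc5 and Kif23, which act in cell separation, were higher in culture by 1.5, 1.29, 2.05 and 2.05. Mcm5, another helicase subunit, and Tyms, which makes thymidylate, were higher by 1.34 and 1.43. These 6 calls were each lost without cultured replicate 1 or 2, with adjusted p values of up to 0.112. The number of called mitosis genes was 2 without cultured replicate 1 or 2 and 14 without splenic replicate 3. For replication it was 1 without cultured replicate 1 or 2 and 15 without splenic replicate 3. Over all tested genes, 54 of 11787, 58 of 11794 and 1272 of 11750 were called higher in these fits, in the same order. With splenic replicate 3 alone for spleen, the medians were 1.34 for mitosis and 0.71 for replication. The replication-dependent histone genes H2ac24 and H2ac7, which were among the 10 genes with the smallest adjusted p between spleen and marrow, followed the cell cycle lists. H2ac24 had 287, 307 and 191 CPM in culture, 22.8, 20.5 and 17.9 in spleen and 273, 268 and 170 in marrow. Spleen lay far below both other groups, and the log2 fold change between culture and spleen was 3.68 (SE 0.27, adjusted p = 0.00193, called in all 9 fits). Histone genes are near-identical in sequence, so the split of reads among them is uncertain.

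Interferon-stimulated genes held the largest number of calls lower in culture of any list, while cDC2 genes held a larger share (8 of 15 tested). Of 32 tested interferon-stimulated genes, 13 were called lower (2.59% of all tested genes) and none higher (median -2.54). Between spleen and marrow, 5 were called higher in spleen (1.74%). Culture against marrow gave 1 higher and 6 lower (2.46% of all tested genes). These genes are switched on by a complex of STAT proteins and IRF9, which binds the interferon-stimulated response element, searched here as a GAAA and a second GAAA with 2 bases of any kind between them, on both strands, in the 250 bases before annotated starts. The element's letters were in the window of 6 of the 10 called members matched in the RefSeq promoter table, and in 10 of 15 tested members that were not called, against 2.98% of all 32851 windows. Matches may overlap, and a match is a description of the letters and not evidence of binding. A pair of called members is shown to place the matches, in capitals, on the gene's strand in GRCm38.p6: Isg15, a ubiquitin-like modifier (chr4:156200819-156201068, minus strand, 3 overlapping matches) and Slfn5, a Schlafen protein (chr11:82951852-82952101, plus strand, 1 match), both from RefSeq.
Isg15: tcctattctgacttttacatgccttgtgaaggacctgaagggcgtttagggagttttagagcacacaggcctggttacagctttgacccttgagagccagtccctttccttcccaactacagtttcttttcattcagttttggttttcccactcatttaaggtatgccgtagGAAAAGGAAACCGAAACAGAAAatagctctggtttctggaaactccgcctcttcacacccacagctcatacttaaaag
Slfn5: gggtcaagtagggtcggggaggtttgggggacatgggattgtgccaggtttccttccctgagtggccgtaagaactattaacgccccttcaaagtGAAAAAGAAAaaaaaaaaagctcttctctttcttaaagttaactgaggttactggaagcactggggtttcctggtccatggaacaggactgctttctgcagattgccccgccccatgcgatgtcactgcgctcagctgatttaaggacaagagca

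Irf7, the factor that amplifies the interferon response (chr7:141263183-141266499), had 84.6, 51.1 and 84.5 CPM in culture, 693, 440 and 496 in spleen and 201, 160 and 211 in marrow. Culture was lowest and spleen highest, with no overlap between any pair of groups. The difference from spleen was -2.89 (SE 0.27, adjusted p = 0.00236), and culture was also below marrow (-1.38, adjusted p = 0.0214, lost without any 1 cultured or marrow library, up to 0.0854). Slfn5, whose window is printed above, had 20.0, 13.5 and 19.9 CPM in culture, 85.7, 92.9 and 64.5 in spleen and 21.2 to 32.2 in marrow (-2.19, SE 0.26, adjusted p = 0.00501). Usp18, which removes ISG15 and dampens interferon signalling, had 6.91, 5.68 and 5.2 CPM in culture, 27.4, 27.8 and 30.9 in spleen and 17.3 to 21.9 in marrow (-2.27, SE 0.23, adjusted p = 0.00276). Cultured and splenic libraries did not overlap for these 3 genes, and each was called in all 9 fits, as was Cmpk2, a mitochondrial nucleotide kinase (-2.57, SE 0.31, adjusted p = 0.00594). Isg15, shown for its window and chosen after its values were seen, was low throughout, at 0.543, 0.242 and 0.258 CPM in culture and 4.01, 9.76 and 3.02 in spleen (-3.99, SE 0.82, adjusted p = 0.0363). Without cultured replicate 2 the list had 5 calls and without splenic replicate 3 it had 16, each of them lower in culture. Over all tested genes, 72 of 11794 and 666 of 11750 were called lower in these fits. With splenic replicate 3 alone for spleen, the list median was -2.65.

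Genes of cDC2, the other conventional subset, were next. Of 15 tested cDC2 genes (17 listed), 8 were called lower (2.59% of all tested genes) and none higher (median -1.44). Between spleen and marrow edgeR called none, while 5 had an unadjusted p below 0.05. DESeq2 called 2 of the 15 there, where it called 1233 of 11525 tested genes. Against marrow, edgeR called 7 lower in culture (2.46%). Sirpa, the inhibitory receptor that marks cDC2, had 195, 216 and 206 CPM in culture, 578, 822 and 722 in spleen and 893, 882 and 1120 in marrow. Culture lay below both primary groups (-1.78, SE 0.17, adjusted p = 0.00239). Cd209a, a lectin of the DC-SIGN family, had 7.31, 10.3 and 7.49 CPM in culture, 90.4, 85.6 and 64.9 in spleen and 57.7 to 84.6 in marrow (-3.26, SE 0.25, adjusted p = 0.00193). Cx3cr1, the fractalkine receptor, had 3.58, 5.24 and 4.87 CPM in culture, 59.9, 43.2 and 36.5 in spleen and 54.3 to 112 in marrow (-3.35, SE 0.35, adjusted p = 0.00326). The cultured libraries were lowest for all 3 genes, and these 3 calls held in all 9 fits. The other 5 calls, among them Tmem176b, Cd7, Tmem176a and Csf1r, were lost without cultured replicate 1 and without cultured replicate 2, where the list count was 3 and adjusted p values reached 0.19. With splenic replicate 3 alone for spleen, the list median was -1.34. Reads of the Cd209 family may be split among related copies.

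Of 15 tested pDC genes (16 listed), 3 were called lower in culture than in spleen (2.59% of all tested genes), with a median of -1.55. Against marrow, 8 were called lower in culture (2.46%). The other 12 were not called between culture and spleen, and 2 of the 3 calls held in all 9 fits. The list median was -0.89 with splenic replicate 3 alone for spleen. Irf7 is among the 3 and is counted in the interferon list too. Spib, a transcription factor of pDC and B cells, had 2.24, 6.29 and 5.39 CPM in culture, 39.6, 36.8 and 26.2 in spleen and 42.8 to 49.7 in marrow, again with culture lowest (-2.88, SE 0.39, adjusted p = 0.00881, called in all 9 fits). Cd209d was the other member called (-5.33, SE 1.12, adjusted p = 0.0377), and its call was lost without cultured replicate 1 or 2 or any 1 marrow library, with an adjusted p of up to 0.163. Cd22 and Cd79b of the B cell list were also called lower in culture (-1.88 and -2.52, both lost without cultured replicate 1, up to 0.0547 and 0.0636), as was Cd163 of the macrophage list, a haemoglobin scavenger receptor. Cd163 had 2.17, 3.91 and 1.51 CPM in culture, 45.5, 79.9 and 42.9 in spleen and 56.3 to 73.2 in marrow (-4.47, SE 0.43, adjusted p = 0.00239), while Spic, the macrophage lineage factor, was at 0 in splenic replicate 1 and in all marrow libraries.

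Immediate early genes, which respond within minutes to growth factor or stress signals, had 1 call between culture and spleen. Of 27 members, that call was lower in culture (median -0.45), where 4.63% of all tested genes were called in either direction. Against marrow, 9 were called higher in spleen (1.74% of all tested genes) and 8 higher in culture (2.94%). Fos, a subunit of the AP-1 transcription factor, had 57.9, 51.5 and 57.8 CPM in culture, 117, 96.2 and 59.7 in spleen and 4.73, 4.54 and 4.92 in marrow. Culture was just below spleen and both lay above marrow (-0.70, SE 0.24, adjusted p = 0.148 for culture against spleen and 4.26, adjusted p = 0.00126, for spleen against marrow). Jund, another AP-1 subunit, had 196, 214 and 198 CPM in culture, 307, 249 and 185 in spleen and 24.4 to 35.6 in marrow. Dusp1, a phosphatase that switches off MAP kinases, and Junb, a further AP-1 subunit, were also called higher in spleen than in marrow and not called between culture and spleen. Egr1, a zinc finger factor, was the called exception, with 6.51, 8.99 and 6.09 CPM in culture, 80.5, 51 and 35.6 in spleen and 0.727 to 1.53 in marrow (-2.95, SE 0.41, adjusted p = 0.00915). Its call was lost without cultured replicate 1 or 3, with an adjusted p of up to 0.0568. Without splenic replicate 3 the list had 8 calls lower and 3 higher in culture, where 666 and 1272 of 11750 tested genes were. With splenic replicate 3 alone for spleen the list median was 0.14.

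Genes of NF-kB feedback restrain or tune that inflammatory pathway. Of 22 tested members (24 listed), 4 were called lower in culture than in spleen (2.59% of all tested genes) and 18 were not called (median -0.86). Between spleen and marrow, 6 were called higher in spleen (1.74%). Tnfaip3, which encodes the ubiquitin-editing enzyme A20, had 21.4, 23.7 and 14.4 CPM in culture, 58.8, 89.3 and 81.4 in spleen and 11.6, 14.3 and 15.5 in marrow. Culture overlapped with marrow and lay below spleen (-1.95, SE 0.26, adjusted p = 0.00881, called in all 9 fits). Nfkbie, Nfkbid and Nfkb1, which encode inhibitors and a subunit of NF-kB, were the other called members (-1.54, -2.10 and -0.75). Without any 1 cultured library the list count was 1 and their adjusted p values reached 0.0927, 0.141 and 0.196. The list median was -0.6 with splenic replicate 3 alone for spleen. Relb, a subunit of the alternative NF-kB pathway, had 60.7, 74.8 and 40.4 CPM in culture, 131, 103 and 106 in spleen and 21.8 to 37.2 in marrow, and was not called (-0.95, SE 0.28, adjusted p = 0.109). Maturation genes gave 1 call in 19 tested (Tnfaip3 again), where 4.63% of all tested genes were called. Their median was -0.61, and -0.55 with splenic replicate 3 alone for spleen. Cd86, a costimulatory ligand for T cells, had 65.2, 67.2 and 53.7 CPM in culture, 26.5, 35 and 47.7 in spleen and 5.7 to 7.23 in marrow. It was called higher in spleen than in marrow (2.51, adjusted p = 0.00296), and culture lay above spleen without overlap or a call (0.77, SE 0.24, adjusted p = 0.124).

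Among 24 glycolysis and hypoxia genes, 7 were called higher in culture than in spleen (2.04% of all tested genes), 17 were not called and none was lower (median 0.99). Against marrow, 6 were called higher in culture (2.94%) and 18 were not called. Aldoa, the glycolytic aldolase (chr7:126795234-126800994), had 2530, 3460 and 2330 CPM in culture, 399, 543 and 662 in spleen and 439, 476 and 455 in marrow. Cultured libraries lay above all primary libraries (2.38, SE 0.23, adjusted p = 0.00241). Gapdh, often used as a reference gene, had 777, 932 and 739 CPM in culture, 211, 246 and 252 in spleen and 382, 426 and 360 in marrow (1.79, SE 0.15, adjusted p = 0.00193). Pfkp, a phosphofructokinase, differed by 1.53 (SE 0.18, adjusted p = 0.00568), Pkm, pyruvate kinase, by 1.90 (adjusted p = 0.0107) and Eno1, enolase, by 1.82 (adjusted p = 0.012). These 5 calls held in all 9 fits. Ankrd37, a hypoxia-inducible gene, lost its call without any 1 cultured library (up to 0.0809). Without any 1 cultured library the list count was 5. With splenic replicate 3 alone for spleen, the list median was 0.86. Of the 23 respiratory chain genes, none was called between culture and spleen (median -0.05, and 0.25 with splenic replicate 3 alone for spleen). An unadjusted p below 0.05 was found for 1, and DESeq2 called 1 higher, where it called 767 of 11525 tested genes higher. Differences of highly expressed genes with 1 RefSeq transcript may be narrowed by a limit on counts per base, which was not tested for these lists.

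The amino acid stress response, the programme that ATF4 and its partners switch on when amino acids run short, held calls in the same direction. Of 21 tested members (23 listed), 8 were called higher in culture than in spleen (2.04% of all tested genes), 13 were not called and none was lower (median 1.10). Against marrow, 6 were called higher in culture (2.94%). The letters of the C/EBP-ATF response element, searched as TGATGNAA on both strands, were in the window of 2 of 7 called members matched in the promoter table and in 3 of 12 not called, against 3.45% of all windows. The windows of those 2 members, Chac1 (chr2:119350992-119351241, plus strand, 1 match) and Slc7a11 (chr3:50443614-50443863, minus strand, 2 matches), are shown from RefSeq (GRCm38.p6) with the matches in capitals.
Chac1: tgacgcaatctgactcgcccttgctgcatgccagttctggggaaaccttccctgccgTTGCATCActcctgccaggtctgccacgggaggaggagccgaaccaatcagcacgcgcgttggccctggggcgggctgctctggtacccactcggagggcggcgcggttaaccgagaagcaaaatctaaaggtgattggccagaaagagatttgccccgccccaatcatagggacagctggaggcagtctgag
Slc7a11: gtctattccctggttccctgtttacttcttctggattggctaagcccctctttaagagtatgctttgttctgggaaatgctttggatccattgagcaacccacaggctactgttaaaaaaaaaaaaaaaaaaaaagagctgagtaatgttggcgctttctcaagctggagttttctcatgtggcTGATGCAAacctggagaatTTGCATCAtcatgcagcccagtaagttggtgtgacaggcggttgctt

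Slc3a2, the shared heavy chain of several amino acid transporters, had 394, 368 and 400 CPM in culture, 72.4, 66.6 and 127 in spleen and 81.1, 85.3 and 81.2 in marrow. Culture stood above both primary groups (2.12, SE 0.25, adjusted p = 0.00495, called in all 9 fits). Slc7a11, the cystine transporter that pairs with it, had 24.6, 29.6 and 23.3 CPM in culture, 5.12, 7.36 and 8.97 in spleen and 25.9, 25.0 and 29.5 in marrow. Here marrow was as high as culture and spleen was the group apart (1.85, SE 0.27, adjusted p = 0.0104, lost without cultured replicate 1 or 2, up to 0.0543). Trib3, a pseudokinase induced by ATF4, had 12.2, 15.3 and 13.1 CPM in culture and 0 in all splenic libraries, at least 263-fold higher in culture against a floor of 3 counts over the splenic group (adjusted p = 0.0141). Chac1, a glutathione-degrading enzyme, had 13.1, 14.7 and 9.67 CPM in culture and 0 in spleen, at least 243-fold higher (adjusted p = 0.0267). Each of these 2 calls was lost without any 1 cultured library, and that of Chac1 also without marrow replicate 2, with adjusted p values of up to 0.0758 and 0.113. Ddit3, which encodes the stress factor CHOP, and Mthfd2, an enzyme of mitochondrial folate metabolism, were called too (1.97 and 1.00), and both calls were lost without any 1 cultured library (up to 0.111 and 0.0992). The list count was 1 without cultured replicate 1 or 2 and 11 without splenic replicate 3. Over all tested genes, 54 of 11787, 58 of 11794 and 1272 of 11750 were called higher in these fits, in the same order. With splenic replicate 3 alone for spleen, the list median was 0.84. Without molecular identifiers, such floors and intervals hold for counting error alone.

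**Figure D3:**
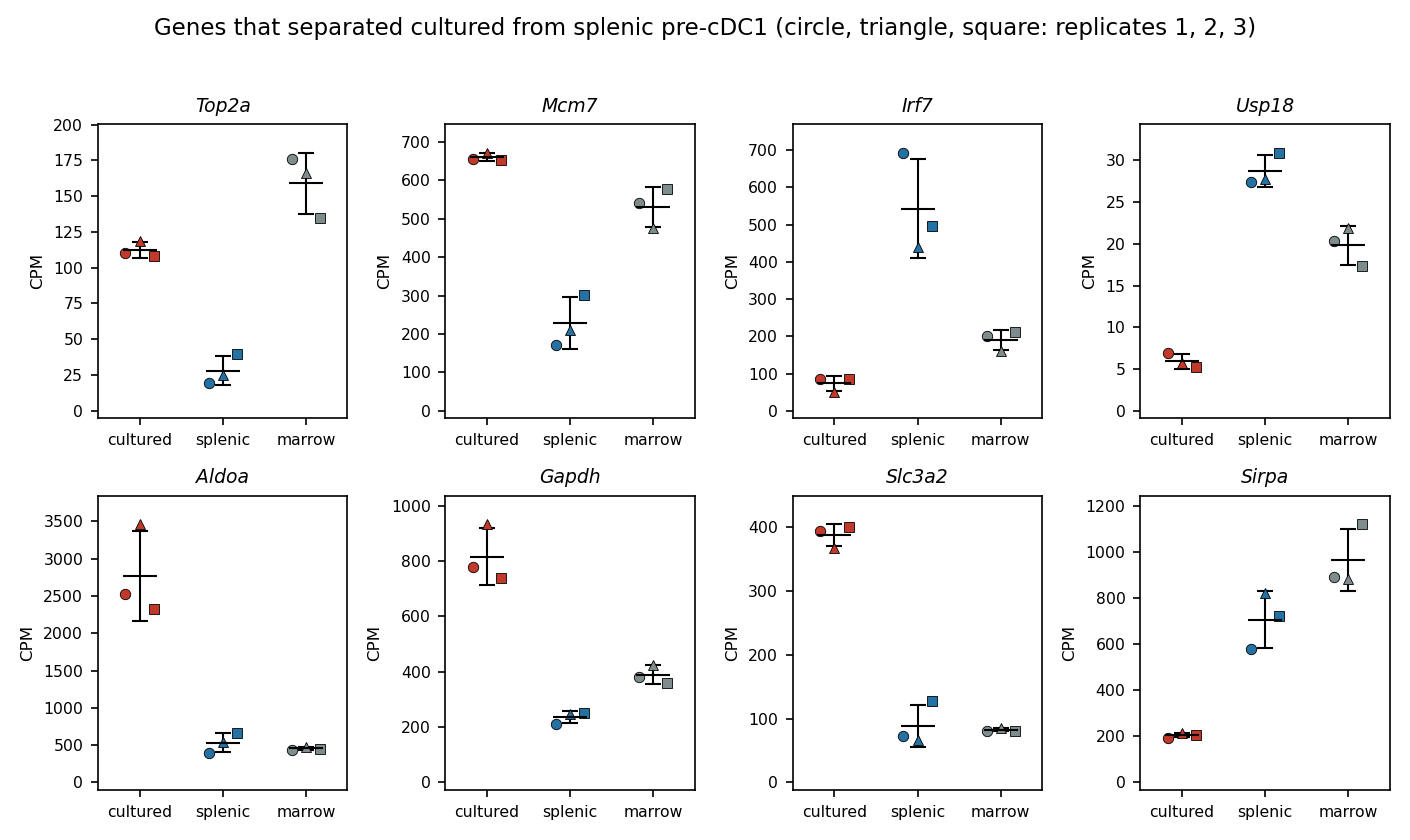
CPM in each library for 8 genes of cell division, interferon response, glycolysis, amino acid stress and cDC2 identity, in cultured, splenic and marrow pre-cDC1. Circles, triangles and squares are replicates 1, 2 and 3, bars are means and error lines SD (n = 3). Top2a and Mcm7 are lowest in spleen, Irf7 and Usp18 highest in spleen, Aldoa, Gapdh and Slc3a2 highest in culture, and Sirpa lowest in culture.

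Among 27 tested cytokine receptor and STAT genes, 3 were called higher in culture (2.04% of all tested genes) and 2 lower (2.59%). The list median was -0.4, and -0.27 with splenic replicate 3 alone for spleen. Csf2rb, the shared beta chain of the receptors for GM-CSF, IL-3 and IL-5, had 588, 672 and 594 CPM in culture, 271, 205 and 241 in spleen and 189 to 213 in marrow. Culture lay above both primary groups (1.37, SE 0.15, adjusted p = 0.00336, called in all 9 fits). Csf2rb2, its near-identical neighbour, moved the same way (1.81, adjusted p = 0.0311, lost without any 1 cultured library or marrow replicate 1, up to 0.111), and reads may be split between the pair. Il1r2, the interleukin-1 decoy receptor from the glucocorticoid response list, had 746, 1240 and 671 CPM in culture, 39.6, 40.5 and 25.0 in spleen and 4.12, 5.17 and 5.02 in marrow. It stepped up from marrow to spleen to culture without overlap (4.66, SE 0.32, adjusted p = 0.00193 between culture and spleen, called in all 9 fits). The whole glucocorticoid list had 2 of 16 tested members called higher (2.04% of all tested genes) and 1 lower (2.59%), with a median of -0.07. Cybb, the catalytic subunit of the phagocyte oxidase, had 24.6, 26.8 and 35.1 CPM in culture, 96.4, 124 and 96.5 in spleen and 64.4 to 83.5 in marrow, with culture lowest (-1.87, SE 0.21, adjusted p = 0.00402, called in all 9 fits).

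Of the other lists, chemokine receptors and migration had 3 of 22 tested members called lower in culture (among them Cx3cr1 and Itga4), pattern recognition receptors 3 of 24 (Ifih1, Tlr1 and Nod1) and class I presentation 2 of 19 (Cybb and H2-K1), with none higher. Over all tested genes, 2.59% were called lower and 2.04% higher. The medians of these 3 lists were -0.27, -0.37 and -0.13 in the same order. With splenic replicate 3 alone for spleen they were 0.01, -0.82 and 0.04. Cholesterol synthesis had 2 of 24 called higher in culture (Stard4 and Fdps), and 7 higher than in marrow (2.94% of all tested genes). Its median against spleen was 0.42, and 0.52 with splenic replicate 3 alone for spleen. Of these named genes, Cx3cr1 and Cybb were called in all 9 fits, and the others lost their calls without cultured replicate 1 and without cultured replicate 2, with adjusted p values of up to 0.213. Lysosomal genes had 1 of 23 called, near the 4.63% of all tested genes that were called. It was Ctsc, the protease that activates granzymes, higher in culture by 1.28 (SE 0.16, adjusted p = 0.00586, called in all 9 fits). The list median was -0.07, and -0.08 with splenic replicate 3 alone for spleen. No member of the list of heat shock and dissociation stress genes was called in 17 tested, with a median of -0.12 and 3 at an unadjusted p below 0.05. DESeq2 called 1 of them higher in culture, where it called 767 of 11525 tested genes higher. EdgeR without splenic replicate 3 called 5 higher, where 1272 of 11750 tested genes were. With that library alone for spleen, the list median was 0.01. The plot of lists sets these counts side by side for the 3 comparisons.

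**Figure D4:**
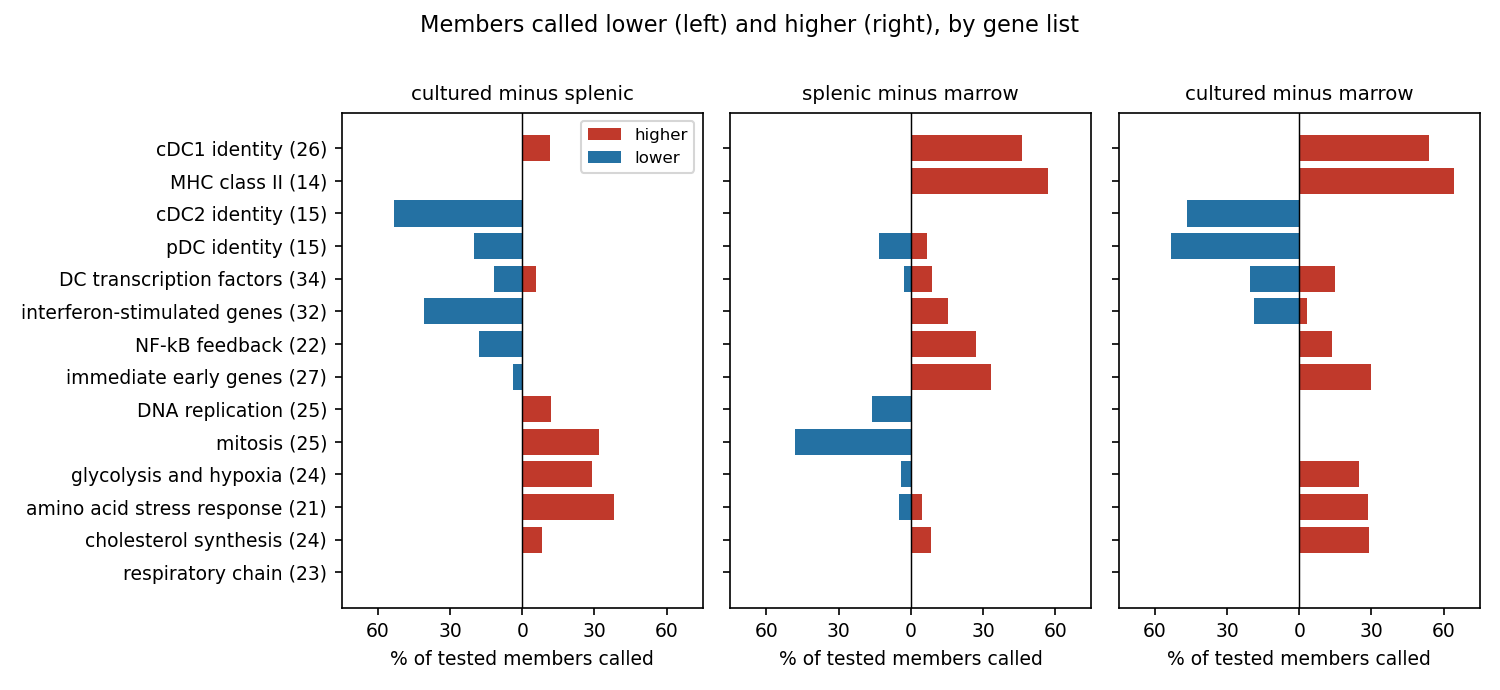
Percentage of tested members called higher or lower in each of 14 gene lists, for cultured minus splenic, splenic minus marrow and cultured minus marrow pre-cDC1. The comparisons share libraries. Interferon-stimulated and cDC2 genes are called lower in culture than in spleen (13 of 32 and 8 of 15, against 2.59% of all tested genes). Mitosis genes are called lower in spleen than in marrow (12 of 25, against 1.49%).

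The 10 largest rises were in genes that were near 0 in spleen. Gpnmb, a transmembrane glycoprotein of phagocytes, had 40.4, 44.9 and 8.27 CPM in culture and 0 in all splenic and marrow libraries, at least 604-fold higher than in spleen (adjusted p = 0.0303, lost without cultured replicate 1 or 2, up to 0.127). Mmp12, the macrophage elastase, had 227, 273 and 32.5 CPM in culture and 0, 0 and 0.816 in spleen (9.16, SE 1.64, adjusted p = 0.037). Cultured replicate 3 was the low library for both genes, while no cultured library overlapped with spleen. Dapk2, a death-associated kinase, had 40.1, 43.3 and 33.4 CPM in culture and 2 counts in all of spleen, a ratio of 1140 (95% counting interval from 315 to 9410) (adjusted p = 0.00594, called in all 9 fits). Stau2, an RNA-binding protein, was at 5.86, 19.1 and 13.1 CPM in culture, 0 in spleen and 1.92 to 5.17 in marrow, at least 243-fold higher than in spleen (adjusted p = 0.00786, called in all 9 fits). Zfp473, a zinc finger protein, was low in spleen alone, with 15.5, 17.2 and 20.0 CPM in culture, 0.0617, 0 and 0.0408 in spleen and 8.97, 16.2 and 21.9 in marrow (adjusted p = 0.00193, called in all 9 fits). Upp1, Hpgds and Lpl were the rest, beside Trib3 and Chac1. The calls of Mmp12, Upp1, Hpgds and Lpl were each lost without any 1 cultured library, among others, with adjusted p values of up to 0.131, 0.154, 0.119 and 0.183.

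Of the 10 largest falls, 7 were at 0 in all cultured libraries. Cd209e, a DC-SIGN relative, had 50.5, 29.2 and 23.2 CPM in spleen and 3.85 to 20.3 in marrow, at least 864-fold higher in spleen than in culture (adjusted p = 0.00676). Abca9, a lipid transporter of the ABC family, had 9.44, 25.9 and 27.9 CPM in spleen and 30.3 to 39.4 in marrow, at least 588-fold higher in spleen (adjusted p = 0.00239). Mcemp1, a myeloid membrane protein, had 0, 0 and 0.148 CPM in culture and 16.2, 15.6 and 15.3 in spleen (-8.15, SE 1.21, adjusted p = 0.0117). The primary libraries stood above the cultured ones for all 3, and these calls held in all 9 fits. Slc28a2, a nucleoside transporter, was at least 1090-fold higher in spleen, with 37.7, 53 and 34.6 CPM against 0 to 3.69 in marrow. Its adjusted p was 0.0424 and rose to 0.126 without cultured replicate 1. Lck, the kinase of T cell receptor signalling, had 27.3, 68.2 and 10.5 CPM in spleen and 0, 0 and 0.738 in culture (-7.13, SE 1.61, adjusted p = 0.0472), while Cd3e, which defines T cells, was at 0, 4.57 and 0 CPM in splenic replicates 1, 2 and 3. The others were Abcd2, Gimap6, Fgd4, Fcna and Cmah. Calls of Slc28a2, Lck, Abcd2, Gimap6, Fgd4, Fcna and Cmah were each lost without cultured replicate 1 and without cultured replicate 2, the largest adjusted p being 0.139, and all but that of Fcna were also lost without other libraries.

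The placing of cultured cells was then described for the genes that separate spleen from marrow. For each gene the mean log2 CPM of the cultured libraries was set on a scale with 0 at the marrow mean and 1 at the splenic mean. The same splenic and marrow libraries chose the genes and set both ends of the scale, so the shares are a description with no test. Of 200 genes called higher in spleen than in marrow, cultured cells were nearer to spleen for 155 (77.5%), with a median position of 0.87. Of 172 genes called lower in spleen, they were nearer to spleen for 43 (25%) and nearer to marrow for 129, with a median of 0.24. Of the 200, 40 were also called between culture and spleen and 131 between culture and marrow. Of the 172 these counts were 98 and 33.

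By list, cultured cells were nearer to spleen for 12 of 12 called cDC1 identity genes, 8 of 8 class II genes and 7 of 9 immediate early genes. These members were higher in spleen, where the share over all 200 genes was 77.5%. Among 5 interferon-stimulated genes, also higher in spleen, cultured cells were nearer to spleen for 1. They were nearer to spleen for none of 12 mitosis and none of 4 replication genes. Those were lower in spleen, where the share over all 172 genes was 25%. Among the 10 genes with the smallest adjusted p between spleen and marrow, Fos, H2-Ob, Jund, Gcsam, Sh3bp1, Phf11a, Ifi205 and Ifi211 were higher in spleen and not called between culture and spleen, while H2ac24 and H2ac7 were lower in spleen and were called. Gcsam, a signalling protein named for germinal centres and a member of the cDC1 list, had 242, 298 and 202 CPM in culture, 59.3, 82 and 208 in spleen and 0, 0.0528 and 0 in marrow. Culture and spleen overlapped through splenic replicate 3, and marrow held almost none. The share nearer to spleen among genes higher in spleen was 54.2% without splenic replicate 3, where 498 genes were called, and 90.8% without marrow replicate 1, where 76 were. Among genes lower in spleen it was between 13.8% and 24.6% when any 1 library was left out.

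**Figure D5:**
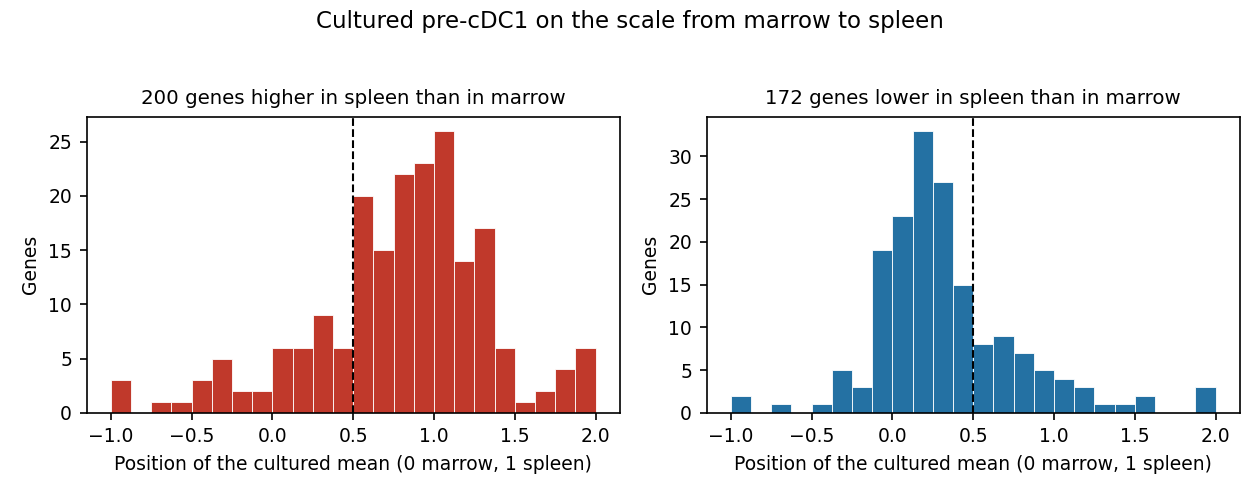
Histograms of the position of cultured pre-cDC1 between marrow (0) and spleen (1), in units of the splenic minus marrow difference in mean log2 CPM, for 200 genes called higher and 172 called lower in spleen. The vertical axis is the number of genes, the dashed line marks the midpoint 0.5, and values beyond the axis are drawn in the end bins. The first histogram centres near spleen (median 0.87) and the second nearer marrow (median 0.24).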

How the data were processed

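Per the labels' protocols, cDNA of wild-type pre-cDC1 came from a SMART-Seq HT kit and libraries from Nextera XT. The authors deposited expected counts per gene, 1 file a library, for 21000 genes. Per the submitters' processing notes, the tools were STAR 2.7.7a, RSEM 1.3.3 and Picard 2.25.0 and the builds GRCm38 and mm10, with no role or order given. The annotation, the handling of duplicate reads and any use of strand are not given in the sources used here, so overlapping and antisense genes cannot be told apart.

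Groups and replicate numbers came from the titles. Expected counts were rounded to whole numbers, and 11525 genes passed edgeR's default filter on low counts. Cultured, splenic and marrow libraries (9 in all) were fitted together with edgeR 4.0.16 (R 4.3.3), with TMM normalisation, the quasi-likelihood F test and Benjamini-Hochberg adjustment over all tested genes, at a threshold of 0.05. Every adjusted p is from that test. The SE was taken as the size of the log2 fold change over the root of the F statistic. No pair of libraries in a group agreed within sampling noise.

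Named genes were Irf8, the 10 called genes that rose most and the 10 that fell most, with groups that did not overlap and a higher mean of at least 10 CPM (Gm, Rik and -ps symbols left out), in each list the members of smallest adjusted p, at most 6, members of the identity, transcription factor and class II lists, and the 10 smallest adjusted p between spleen and marrow. Some genes under this rule are not reported here. The libraries, lists and rule were chosen with earlier results of these data known. Alternatives were DESeq2 1.42.0, its size factors in edgeR, no filter, a replicate block, only the groups compared, all 47 libraries in 1 fit, replicate 3 of each group left out and each library left out. Alternatives chosen after seeing the data were splenic replicate 3 as the sole splenic library, genes of at least 10 CPM, genes near the count limit left out, and the splenic end of the position scale from replicate 3. Promoter windows came from RefSeq (GRCm38.p6). Among genes with 1 RefSeq transcript, the 99th percentile of counts per base was 0.778 to 1.09, against 2.52 to 5.53 with 2 transcripts. Levels of highly expressed genes with 1 transcript, such as H2-Ab1, may thus be understated and their differences between groups narrowed. Of 89 tested genes with at least 0.8 counts per base and 1 transcript, 5 were called between cultured and splenic cells.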

Additional observations from a re-analysis of the deposited data

How the results depend on the processing

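Each list of calls was recomputed with other tools, filters and libraries. For cultured against splenic cells, 534 genes were called in the edgeR fit of the 9 libraries. DESeq2 called 1653, a fit of the 2 groups alone 171, a fit of all 47 libraries 2265, and a fit without replicate 3 of all 3 groups 1123. Leaving out 1 library at a time gave 124 to 1938 calls, the lowest without cultured library 1 and the highest without splenic library 3. For splenic against marrow cells, with 372 calls, the same 4 settings gave 1233, 89, 1820 and 755. Leaving out 1 library gave 135 to 1541, and keeping splenic library 3 alone gave 743. For cultured against marrow cells, with 623 calls, they gave 1570, 2534, 1907 and 269. Leaving out 1 library gave 204 to 1036, and keeping splenic library 3 alone gave 2384. The cause of these shifts was not tested.

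The replicate numbers were shared by the groups, but libraries of the same number did not deviate together: the correlations of their deviations ran from -0.02 to 0.06. With the replicate number as a block, 232 genes were called for cultured against splenic, 187 for splenic against marrow and 438 for cultured against marrow cells.

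Of the spleen-high genes, 77.5% lay nearer spleen in the cultured cells. The value was 85% for genes with a fold of at least 4, 67.6% without replicate 3 of all 3 groups, and 54.2% to 90.8% when 1 library was left out. Of the spleen-low genes, 25% lay nearer spleen, against 14.4%, 10.4% and 13.8% to 24.6% under the same settings; the cause was not tested.

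For the 95 genes under the naming rule that were called between cultured and splenic cells, calls were recounted. All were called by DESeq2, 75 without replicate 3 of all 3 groups, and 33 whichever library was left out. None of the 95 changed sign under any alternative run. Sign changes were in genes that were not called. With splenic library 3 alone, an alternative chosen after seeing the data, the log2 difference was 0.13 for Jund, -0.13 for Zbtb46, -0.10 for Cadm1, 0.43 for Id2, 0.04 for H2-Aa, -0.21 for Ciita and -0.31 for Cd74. Leaving out 1 library, it ran from -0.03 to 0.42 for Zbtb46 and from -0.38 to 0.01 for Id2. With 3 libraries a group, the number of calls rests strongly on which libraries enter the fit.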
